A study of Homo sapiens with 2 samples.

Results

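CCNB1 and CENPH are neighbouring genes of cell division on chromosome 5, and the bait fragments that hold their ends carried 7 listed interactions in control K562 cells and 42 in ponatinib-treated cells. The members were the unordered fragment pairs that had an end on a captured (bait) fragment holding an end of CCNB1 or CENPH. There were 44 such pairs in either list, of 138160 pairs in all. The locus was picked because of this gain, so the 7 and 42 are given as a description and carry no test.

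K562 is an established human chronic myelogenous leukaemia cell line driven by the BCR-ABL1 fusion kinase. One culture received the vehicle DMSO and the other received ponatinib, a drug that blocks the ABL kinase, at 100 nM, both for 24 h. The 2 cultures differ in no other labelled respect, and promoter-capture Hi-C was performed on cells of each. In this assay crosslinked chromatin is cut with HindIII, the cut ends are ligated to whatever lies close to them in the nucleus, and RNA probes pull out the ligation products that carry a promoter fragment. There was 1 library per treatment, so the spread between replicates is unknown and the treatment could not be tested. The DMSO list held 84049 pairs and the ponatinib list 91305, a ratio of 1.09. Read depth is not known, and a pair's score is the value that the authors gave it, with none under 5 listed. K562 chromosomes carry the BCR-ABL1 rearrangement between chromosomes 9 and 22, and the lists held 1654 and 1781 pairs between those chromosomes.

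Cyclin B1, the product of CCNB1, binds the kinase CDK1 and takes cells into mitosis. Its gene is transcribed mainly late in the cell cycle, and the protein is destroyed when the sister chromatids separate. CENPH encodes a subunit of the constitutive centromere-associated network, the inner kinetochore complex on which the attachment of microtubules is built.

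CCNB1 (gene ID 891) lies at 69167150 to 69178245 on chromosome 5 of hg38, and CENPH (gene ID 64946) at 69189583 to 69210357. The lower end of CCNB1, which is its start, lay on a bait fragment of 10262 bases at 69159346 to 69169607, called the CCNB1 promoter fragment below. The higher end of CCNB1 and the lower end of CENPH both lay on a bait fragment of 12435 bases at 69177723 to 69190157, called the CENPH fragment below. CENPH is read in the same direction as CCNB1, by general knowledge of the locus, so the CENPH fragment holds the CENPH start and only the tail of CCNB1. It also holds both ends of the non-coding gene LOC112267932, and the CCNB1 promoter fragment holds both ends of the small nucleolar RNA gene SNORA50D. The higher end of CENPH lay on no listed bait fragment. A further bait fragment, at 69175564 to 69177722 inside the CCNB1 gene, ends 523 bases short of the higher end of CCNB1. It fell just outside the membership rule and is treated below as a neighbour, the CCNB1 body bait.

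The CCNB1 promoter is shown because the CCNB1 promoter fragment carries it. The 14 ponatinib interactions of that fragment belong to all of its 10262 bases, which also hold SNORA50D, and cannot be assigned to the promoter. Of the 2 member genes, CCNB1 was matched in the RefSeq promoter table of GRCh38.p14. The 250 bases before its start, chr5:69166900-69167149 on the plus strand, lie wholly inside the bait fragment. Capitals mark CCAAT boxes, to which the factor NF-Y is known to bind in many promoters of mitotic genes, and a CACGTG E-box.
CCNB1 promoter: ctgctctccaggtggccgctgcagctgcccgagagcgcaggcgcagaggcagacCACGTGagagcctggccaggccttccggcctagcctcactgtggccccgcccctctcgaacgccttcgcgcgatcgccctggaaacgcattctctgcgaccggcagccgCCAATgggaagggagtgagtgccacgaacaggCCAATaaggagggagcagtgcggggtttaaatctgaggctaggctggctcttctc
The 2 CCAAT boxes begin 87 and 55 bases before the start, and the E-box begins 196 bases before it. CCAAT, searched on both strands, was present in 32.0% of 35116 promoter windows of this length, and 9.53% held 2 or more. CACGTG, which reads the same on both strands, was present in 6.34%. TTTGAA, the usual letters of the cell cycle homology region, was searched on both strands as well, was found in 13.3% of windows, and has no match in these 250 bases. Other spellings of this region were not searched, so its absence cannot be read from this. The motifs do not overlap, and a match is a description of letters only.

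The 2 member fragments gained in unequal number. The CCNB1 promoter fragment had 3 listed partners in DMSO and 14 in ponatinib, 1 of them in both lists, a log2 ratio of 1.91 with 1 added to each number. The CENPH fragment had 4 in DMSO and 29 in ponatinib, and all 4 DMSO interactions were among the 29, a log2 ratio of 2.58. Thus 29 of the 42 ponatinib interactions were those of the fragment with the CENPH start, and the interaction between the fragments was counted for both. Counted by gene, CENPH had 4 and 29, while CCNB1, which owns an end on each fragment, had all 7 and 42 and a log2 ratio of 2.43. In DMSO both fragments were near the middle of all baits. Listed bait fragments had a median of 3 interactions in either library, and 41.3% of them had fewer in DMSO than the CCNB1 promoter fragment and 52.3% fewer than the CENPH fragment. In ponatinib 89.3% had fewer than the CCNB1 promoter fragment and 98.0% had fewer than the CENPH fragment.

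For the background, a bait fragment or gene with at least 5 interactions over both lists was called when its number differed at least 2-fold, with 1 added to each number. Of 11362 bait fragments, 10.5% were called with more in ponatinib and 7.17% with fewer, and of 9787 protein-coding genes, 9.92% with more and 6.26% with fewer. Because the locus was picked by the same numbers, its 2 called fragments and 2 called genes say nothing against these shares. The split of calls moved with the length of the lists. There were 1193 bait fragments with more and 815 with fewer in the lists as deposited, against 893 and 1091 when the ponatinib list was cut to its 84049 highest scores, and 853 and 828 when ponatinib numbers were divided by the ratio of list lengths. For genes the same settings gave 971 and 613, 722 and 827, and 671 and 626. A ratio as high as that of the CENPH fragment was reached by 77 bait fragments (0.678%), itself included, and one as high as that of the CCNB1 promoter fragment by 126 (1.11%).

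**Figure D1:**
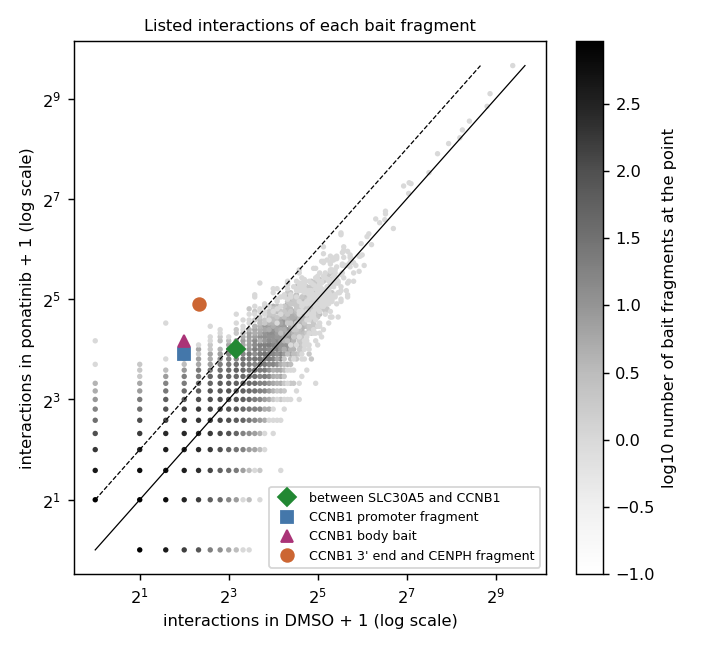
Number of listed interactions of every bait fragment plus 1 in DMSO (horizontal axis) and in ponatinib (vertical axis), both on log scales, with the shade giving how many fragments fall on a point; the solid line marks equal numbers and the dashed line 2-fold more in ponatinib. The CENPH fragment (4 and 29), the CCNB1 promoter fragment (3 and 14) and the CCNB1 body bait (3 and 17) lie above the dashed line, and the bait between SLC30A5 and CCNB1 (8 and 15) lies just under it.

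Nearly all partners were close by. All 44 pairs were on chromosome 5, and 6 of 7 in DMSO and 39 of 42 in ponatinib (92.9%) joined fragments under 200 kb apart between midpoints. In the whole lists 39.8% and 38.7% of pairs were that close, and their number differed by a ratio of 1.06. The median distance at the locus was 47.7 kb in DMSO and 52.2 kb in ponatinib, against 234 and 242 kb over all same-chromosome pairs. Partners were found on both sides, with more of them towards SLC30A5, a zinc transporter gene that lies below CCNB1 at 69094014 to 69131069.

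**Figure D2:**
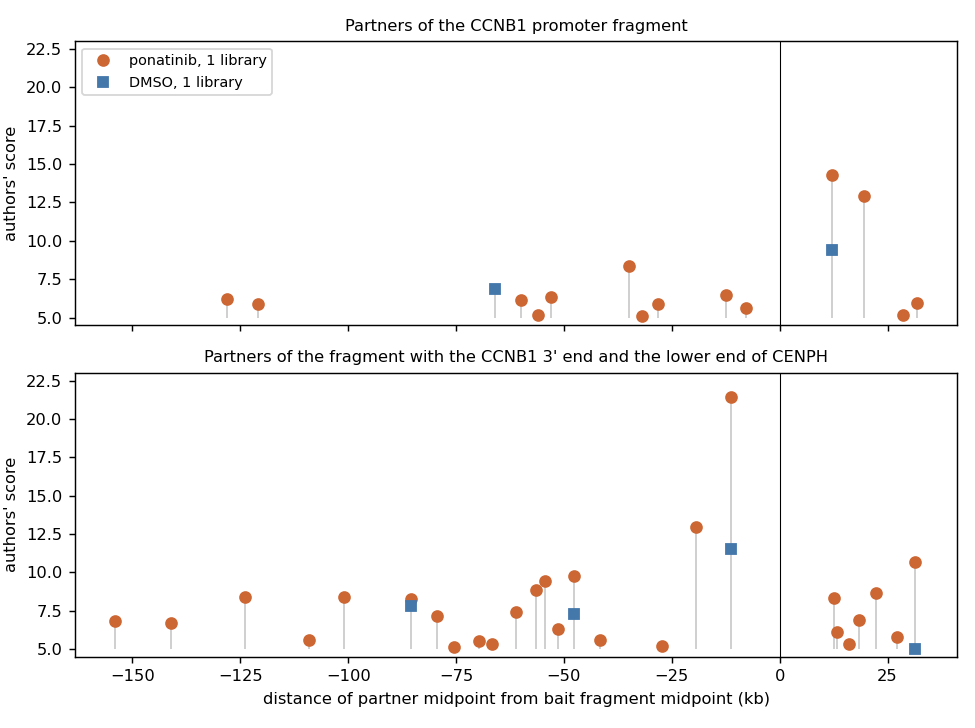
The authors' score of each partner (vertical axis) against the distance in kb of the partner's midpoint from the midpoint of the bait fragment (horizontal axis), for the CCNB1 promoter fragment above and the CENPH fragment below, for partners within 200 kb; squares are DMSO and circles ponatinib, 1 library each. Ponatinib partners reach from 154 kb below the CENPH fragment to 31.9 kb above the CCNB1 promoter fragment, and most have scores between 5 and 10.

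The strongest interactions of the locus joined fragments that hold parts of CCNB1. The CENPH fragment and the fragment next to the promoter fragment inside CCNB1, at 69169608 to 69175563, scored 11.53 in DMSO and 21.4 in ponatinib, above 89.5% and 96.6% of the pairs of their lists. The CCNB1 promoter fragment and the CCNB1 body bait scored 9.38 and 14.29. The CCNB1 promoter fragment and the CENPH fragment themselves, 19.5 kb apart, were not a listed pair in DMSO and scored 12.95 in ponatinib, above 90.9% of that list. These 3 pairs lie over the CCNB1 gene and the space between CCNB1 and CENPH, and they are the 3 highest scores of the locus in ponatinib. The CENPH fragment holds the CENPH start as well as the tail of CCNB1, so its pairs cannot be assigned to either gene.

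Below CCNB1 the partners were scattered, with gaps, between LINC02198, a non-coding gene, and the CCNB1 promoter fragment. The CENPH fragment had 2 partners there in DMSO and 17 in ponatinib, at 69029439 to 69158359, and the CCNB1 promoter fragment had 1 and 10, at 69033754 to 69158359. Partner fragments that overlap SLC30A5 made 2 pairs with the member fragments in DMSO and 14 in ponatinib. In DMSO both pairs went to 1 fragment, at 69094544 to 69102330 near the lower end of SLC30A5, with a score of 6.83 from the CCNB1 promoter fragment and 7.83 from the CENPH fragment. In ponatinib the CENPH fragment kept it with a score of 8.26, and the CCNB1 promoter fragment instead listed the next fragment, at 69102331 to 69106736, with 6.16. In ponatinib 10 fragments over SLC30A5 were partners of 1 or both members, and with gaps of up to 1 kb allowed they formed an unbroken run of 40.1 kb at 69094544 to 69134637. The highest scores in that run were at 69128665 to 69130429, near the higher end of SLC30A5, with 8.35 from the CCNB1 promoter fragment and 9.42 from the CENPH fragment. Its neighbour at 69126387 to 69128664 scored 8.86 from the CENPH fragment, and neither fragment was listed with a member in DMSO.

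Farther below SLC30A5, ponatinib partners were spread over intergenic sequence and pseudogenes. The fragments at 69047803 to 69071307, which holds the pseudogene SUMO2P4, and at 69077776 to 69088409 each scored 8.42 from the CENPH fragment. The fragment at 69040842 to 69045861, which overlaps no gene, was listed with both members, at 5.91 and 6.72. The farthest of this block, at 69029439 to 69030593, holds an end of LINC02198 and scored 6.82 from the CENPH fragment. None of these was a partner of a member in DMSO.

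Above the CENPH fragment and within 200 kb of it, the partners lay over the body of CENPH or between CENPH and the next gene. The CENPH fragment had 1 partner there in DMSO and 7 in ponatinib, at 69195776 to 69216813, and the CCNB1 promoter fragment had 0 and 2. Pairs of the members with fragments over CENPH numbered 0 in DMSO and 8 in ponatinib. The fragment at 69195776 to 69197033 was a partner of both, with 5.92 from the CCNB1 promoter fragment and 8.34 from the CENPH fragment, and the fragment at 69204289 to 69208205 scored 8.67 from the CENPH fragment. The pair with the highest score on this side went past CENPH to 69213771 to 69216813, between CENPH and KGD4, with 5.04 in DMSO and 10.67 in ponatinib. No partner fragment overlapped KGD4 (from 69217760), a mitochondrial gene formerly named MRPS36, or CDK7 (from 69234795), the kinase that activates CDK1.

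Only 4 pairs of the locus joined fragments 500 kb apart or more, and all had scores under 7. In DMSO the CCNB1 promoter fragment was paired with 67236156 to 67246494, 1923 kb away, at a score of 5.48. That pair was absent in ponatinib, where the same distant fragment was listed with the CCNB1 body bait at 5.44. In ponatinib the CENPH fragment was paired with 68381706 to 68382580 (6.03) and 68419704 to 68422219 (6.07), about 802 and 763 kb away, and with 71620687 to 71625713 (6.27), 2439 kb away in MCCC2, a gene of leucine breakdown. None of these 4 was in both lists.

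The lists shared 5 pairs of the locus, which is 71.4% of its DMSO pairs and 11.9% of its ponatinib pairs. Over all pairs the shares were 44.3% and 40.7%. The locus was picked for having 7 and 42 pairs, so the low share of its ponatinib pairs follows from that choice. Its DMSO share rests on 7 pairs, with a counting interval of 29.0 to 96.3% that includes the 44.3%. Each of the 5 shared pairs of the locus had the higher score in ponatinib, as did 53.6% of all 37194 shared pairs. Scores were not normalised between lists. Of the 2 pairs in DMSO alone, 1 was the 1923 kb pair and the other was that of the CCNB1 promoter fragment with the fragment near the lower end of SLC30A5. The 37 pairs in ponatinib alone had scores of 5.08 to 12.95 with a median of 6.16. Of the 42 ponatinib pairs, 15 (35.7%) scored under 6, against 37.2% in the whole ponatinib list, 27 (64.3%) under 7, against 57.8%, and 38 (90.5%) under 10, against 83.6%. At scores of at least 7 the locus had 4 pairs in DMSO and 15 in ponatinib, and at scores of at least 10 it had 1 and 4, where the whole lists had ratios of 1.14 and 1.19.

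**Figure D3:**
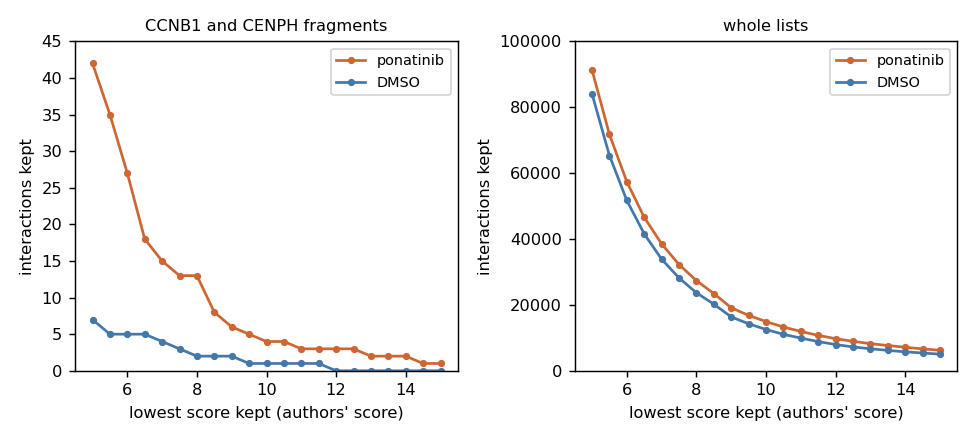
Number of interactions kept (vertical axis) as the lowest score kept rises from 5 to 15 (horizontal axis), for the CCNB1 and CENPH fragments on the left and for the whole lists on the right. The ponatinib line of the locus falls from 42 at a score of 5 to 15 at 7 and 4 at 10 and lies above the DMSO line (7, 4 and 1) at every step drawn.

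The partner sets of the 2 member fragments overlapped. Leaving out pairs among the bait fragments of the locus, the CCNB1 promoter fragment had 11 partners in ponatinib and the CENPH fragment 27, and 7 were common to both, which is 63.6% of the former and 25.9% of the latter. In DMSO the numbers were 2 and 3, with 1 in common. The common ponatinib partners were 69040842 to 69045861, 4 fragments over SLC30A5, the fragment at 69155042 to 69158359 just below the CCNB1 promoter fragment, and 69195776 to 69197033 in CENPH. Neighbouring fragments are often contacted together, so these partners are not independent of each other.

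Neighbouring baits answer whether the gain belonged to the member fragments alone. Within 1 Mb there were 3 other listed bait fragments. The CCNB1 body bait had 3 interactions in DMSO and 17 in ponatinib, and all 3 were shared, a log2 ratio of 2.17 that 0.836% of all bait fragments reached. A bait of 997 bases at 69135746 to 69136742, between SLC30A5 and CCNB1 and holding no gene end, had 8 and 15 with 6 shared, a log2 ratio of 0.83. The bait of PIK3R1, a gene for a regulatory subunit of PI3K that lies 949 kb away, had 1 and 2. Without pairs that go to a member fragment, the body bait had 2 and 16 and the bait between SLC30A5 and CCNB1 had 7 and 13. Of these 3 neighbours only the CCNB1 body bait, which directly adjoins the CENPH fragment, thus reached 2-fold more in ponatinib with 1 added to each number. The PIK3R1 bait had too few for a direction. The bait between SLC30A5 and CCNB1 stayed short of 2-fold, and 12.3% of all bait fragments had a ratio at least as high as its own. Its ponatinib number was 65.2% of its 2 numbers added together, with a counting interval of 42.7 to 83.6%. Over all baits, 4389 next neighbours lay within 50 kb of each other with 5 or more interactions each. In 1.25% of them both had at least 2-fold more in ponatinib when the pair joining them was left out, and this was 6.56% of those in which at least 1 did. Between 1 and 2 Mb away there were 3 more listed baits. A fragment at 68158704 to 68159182 had 1 and 1, another at 67966399 to 67976420 had 1 and 2, and the CD180 bait, 1967 kb away, had 6 and 4. Between the CENPH fragment and a point 2 Mb above it no fragment was a listed bait, so the promoters of KGD4, CDK7, CCDC125, AK6, TAF9, RAD17, MARVELD2 and OCLN were not analysed here.

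**Figure D4:**
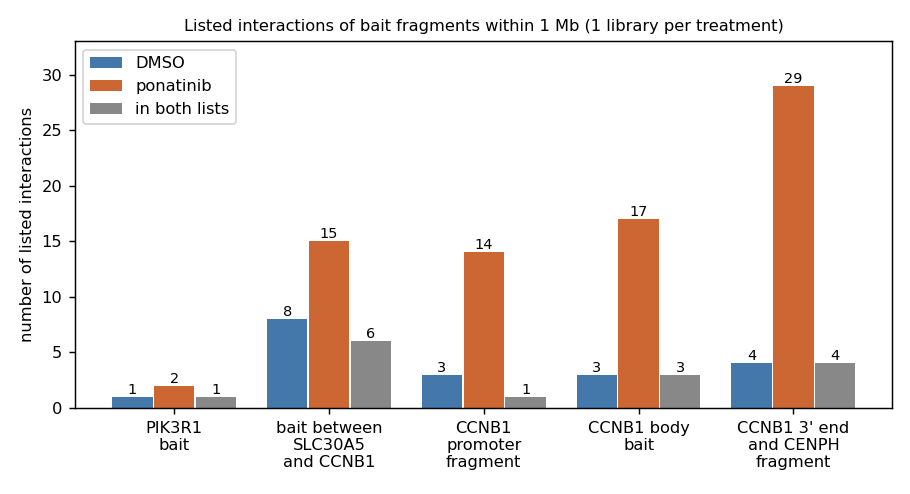
Number of listed interactions (vertical axis) of the 5 bait fragments within 1 Mb, in order along the chromosome, in DMSO, in ponatinib and in both lists, 1 library per treatment. The CENPH fragment (4 and 29) and the 2 other fragments at CCNB1 (3 and 14, 3 and 17) show larger gains than the bait between SLC30A5 and CCNB1 (8 and 15), and the PIK3R1 bait has 1 and 2.

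The CCNB1 body bait contacted the same region as the members. Of its 15 ponatinib partners outside the 4 baits of the locus, 6 were partners of the CCNB1 promoter fragment (40.0% of its own and 54.5% of the other set), and 9 were partners of the CENPH fragment (60.0% and 33.3%). Its highest ponatinib score outside these baits, 8.15, went to 69130430 to 69134637 at the higher end of SLC30A5, where DMSO had 6.1. Of the 12 partners of the bait between SLC30A5 and CCNB1, 10 were partners of the CENPH fragment. Its highest ponatinib score, 9.74, was with the CENPH fragment, where DMSO had 7.29. The next 3 lay over SLC30A5, with 8.74 at 69126387 to 69128664, 8.68 at 69130430 to 69134637 and 8.65 at 69128665 to 69130429. In DMSO these had been 8.4, 6.25 and 8.83. This bait thus already contacted the higher end of SLC30A5 in DMSO, where the 2 member fragments had no listed pair with it.

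Together the 4 baits had 16 pairs in DMSO and 70 in ponatinib, with 12 shared. When baits within 50 kb of the next were joined into groups, 1944 groups had at least 2 baits and 20 pairs over both lists, and 2.21% of them had at least 2-fold more in ponatinib. The 4 baits include the 2 members picked for their gain, so their numbers say nothing against this share. The partners of the 4 baits outside these baits numbered 11 fragments in DMSO, of which 2 were listed with more than 1 of the baits. In ponatinib they numbered 36, of which 19 were listed with more than 1 bait and 3 with all 4. These 3 were 69102331 to 69106736, 69128665 to 69130429 and 69130430 to 69134637, all over SLC30A5. Of the 35 pairs that the members gained to fragments other than baits, 8 went to a fragment that was already listed in DMSO with at least 1 of the 4 baits. The larger number of pairs in ponatinib makes overlap more frequent by itself, and the effect of this was not tested.

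**Figure D5:**
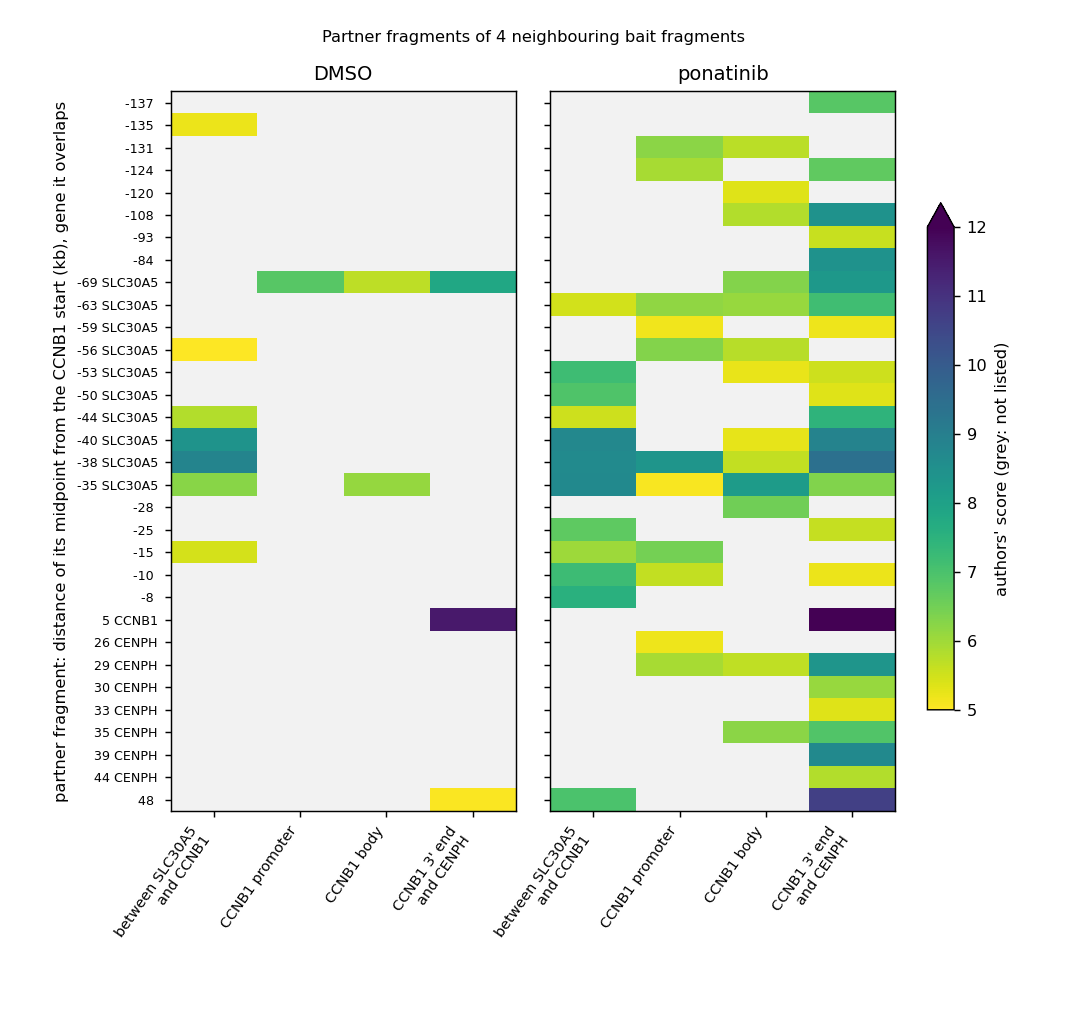
Partner fragments from 137 kb below to 48 kb above the CCNB1 start (rows, with the distance of the midpoint in kb and the gene overlapped) against the 4 neighbouring bait fragments (columns), in DMSO on the left and ponatinib on the right. Colour is the authors' score, with 12 and above in the darkest shade, and grey means not listed; 2 of the 11 DMSO partners and 19 of the 36 ponatinib partners, counted with the few farther away, were listed with more than 1 bait.

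The partner fragments had few pairs with baits elsewhere. Of the 34 partner fragments of the members, 33 were partners in ponatinib and 6 in DMSO, so the choice of fragments itself favours ponatinib. They had 11 pairs with baits other than the members in DMSO and 29 in ponatinib. Nearly all of these pairs went to the CCNB1 body bait and the bait between SLC30A5 and CCNB1. Without those baits there were 2 in DMSO and 1 in ponatinib, too few for a direction. Of these 3 pairs, 2 joined different chromosomes.

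In a list of 67 genes of mitotic entry and exit, 46 had at least 5 interactions over both libraries. Of these, 5 (10.9%) were called with more in ponatinib and 1 (2.17%) with fewer, beside 9.92% and 6.26% of all genes, and the median log2 ratio was 0.00 beside 0.08. The called genes were CCNB1 itself, PLK1, the mitotic kinase gene (1 and 5), CDC16, a subunit gene of the anaphase-promoting complex (3 and 10), FZR1, an activator of that complex (1 and 4), and LIN52, a subunit gene of the DREAM and MuvB complex (2 and 6). The fragments of FZR1, LIN52 and ANAPC11 also hold ends of other genes, as do those of MAD1L1, CCNA2, CDC25C and FOXM1, named below. The single call with fewer was ANAPC11, another subunit gene of the anaphase-promoting complex (5 and 2). The next largest losses were CCNH, the cyclin partner of CDK7 (8 and 4), LIN9, the MuvB subunit gene (8 and 4), and MAD1L1, a spindle checkpoint gene (4 and 2). Closest to CCNB1 in function, CCNB2 had 2 and 2, CCNA2 had 3 and 0, CDK1 had 1 and 0 and WEE1 had 0 and 1, all too few to be called. Their fragments therefore cannot be set beside that of CCNB1. CDC25C, a phosphatase gene that activates CDK1, had 7 and 4, FOXM1, a transcription factor gene of the G2 phase, had 19 and 19, and BUB1B, a checkpoint kinase gene, had 15 and 9. Without CCNB1, which was picked for its gain, 4 of 45 tested genes (8.89%) were called with more and 1 (2.22%) with fewer, and the median log2 ratio was 0.00. The list as a whole had 375 pairs in DMSO and 437 in ponatinib, and 368 and 395 without the member fragments.

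Of 48 genes in a list for the centromere and kinetochore, 47 were found in the RefSeq table and 27 had at least 5 interactions, and 2 (7.41%) were called with more and 2 (7.41%) with fewer, with a median log2 ratio of 0.07. Without CENPH, picked for its gain, 1 of 26 tested genes (3.85%) was called with more and 2 (7.69%) with fewer, beside 9.92% and 6.26% of all genes, and the median was -0.07. Besides CENPH, the call with more was OIP5, a subunit gene of the Mis18 complex, with 1 and 5, on a fragment that also holds an end of NUSAP1. CENPK, whose protein sits next to CENPH in the kinetochore, went the other way with 14 and 6, and DSN1, a subunit gene of the Mis12 complex, had 6 and 2. CENPW had 2 and 4 and ZWILCH 5 and 8, while CENPP had 9 and 5. Most members differed little, such as CENPF with 19 and 20 and CENPT with 7 and 9. The fragments of CENPK, DSN1, ZWILCH, CENPP and CENPT also hold ends of other genes, so their numbers cannot be assigned to 1 gene. Without the member fragments the list had 285 pairs in DMSO and 280 in ponatinib.

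By the smallest distance between the log2 numbers of both libraries, the genes most like CCNB1 were DAAM1 (11 and 33, a distance of 0.68), WWC2 (9 and 27, 0.70), MAML2 (12 and 39, 0.71), COL25A1 (10 and 27, 0.77) and LOC124907900 (10 and 27, 0.77). Those most like CENPH were CMIP (5 and 21, 0.52), RESP18 (5 and 21, 0.52), BSPRY (4 and 18, 0.66), SHB (5 and 18, 0.71) and SIDT2 (4 and 17, 0.74). The fragments of WWC2, LOC124907900, RESP18, BSPRY and SIDT2 also hold ends of other genes. None of these genes had as many in ponatinib from as few in DMSO, but CCNB1 and CENPH were picked for their gain in these same numbers. The comparison is therefore a description only. The log2 ratio of CCNB1 was matched or passed by 52 genes with at least 5 interactions, itself included, and that of CENPH by 49.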

How the data were processed

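Promoter-capture Hi-C lists were available for 2 libraries of K562 cells, 1 per treatment. The authors deposited, for each library, a list of a bait fragment, a partner fragment and a score, and no score was under 5. Coordinates are on hg38, as the submitters' processing notes state. What aligner and caller made the lists, and what the score means, is not given in the sources used here. Depth is unknown too, so nothing was corrected for it.

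Lines were joined into unordered pairs, which merged 91306 ponatinib lines into 91305 pairs. Gene positions came from a RefSeq table of GRCh38.p14, the same assembly as hg38. A gene was counted at every listed bait fragment on which its start or end lies, which gave 13721 protein-coding genes. Distances are between midpoints. Intervals are exact binomial (Clopper-Pearson, 95%) and cover counting error only. They treat pairs as independent, which pairs with neighbouring partner fragments are not. Alternatives were higher score limits, lists of equal length, other windows, tolerance in matching, scaling, pseudocount and minimum number. The call function was tested on simulated numbers. Named genes were the members, genes on partner and neighbouring bait fragments, up to 4 of the largest gains and losses per list, and the 5 genes most like each member. CCNB2, CCNA2, CDK1, WEE1, CDC25C, FOXM1, BUB1B, CENPF and CENPT are named beyond that rule and were chosen after their values were seen. Members and lists were chosen with earlier results of these data known. Python 3.11.15, pandas 2.3.3 and SciPy 1.17.1 were used.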

Additional observations from a re-analysis of the deposited data

How the results depend on the processing

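Of 74 recomputed values, 14 could not move: 6 with pairs on 1 chromosome only, since all pairs of the locus are on chromosome 5, and 8 with a pseudocount of 0.5, which gives the same calls by construction. Of the other 60, 40 stayed within the counting interval of the value reported (for numbers of calls, within 1.5 times), an interval that for the DMSO median distance is as wide as its range (11.4 to 1923 kb). A share in ponatinib is here the ponatinib number as a percentage of the DMSO and ponatinib numbers added together. Pairs in both lists therefore count in each number. No such share moved across 50%, but the members were picked for their gain, so this could hardly have failed for shares built on them. The balance of calls did turn in lists of equal length, from 971 genes with more and 613 with fewer to 722 and 827, and from 1193 and 815 bait fragments to 893 and 1091. The share of the locus pairs that was in ponatinib, 85.7% (72.8 to 94.1%), was 78.9% (54.4 to 93.9%) at scores of at least 7, 80.0% (28.4 to 99.5%) at 10, 85.1% in lists of equal length and 86.6% (9 and 58 pairs) with gene ends within 1 kb, which adds the CCNB1 body bait. At scores of at least 10 the shares of the CCNB1 promoter fragment (0 and 2 pairs) and of the neighbouring baits (0 and 1) were 100%, the median ponatinib distance was 15.8 kb, and no pair of the partner fragments with other baits was left. The share of DMSO pairs found in ponatinib was 100% at scores of at least 7 and 10 and with ends matched within 10 kb, and 85.7% within 5 kb. The share in ponatinib of the neighbouring baits was 73.3% (58.1 to 85.4%), from 12 and 33 pairs (10 and 30 without pairs to a member fragment). It was 73.8% in a window of 500 kb and 66.1% in one of 2 Mb. At scores of at least 7, 520 genes were called with more and 257 with fewer, and 576 and 277 bait fragments; with at least 10 interactions 467 and 243 genes and 505 and 269 bait fragments. Fewer features were tested there. Of the mitotic list 3 genes were called with more at scores of at least 7, and 2 with more and 0 with fewer at a minimum of 10; of the kinetochore list, with 2 called each way, 1 was called with more and 3 with fewer at scores of at least 7, and 1 and 1 at the minimum of 10. No paired analysis was possible because each treatment has 1 library. At these numbers, a difference of 1 or 2 pairs at a bait is not detectable.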

Other observations

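Listed bait fragments lying within 50 kb of the next were joined into groups, a step chosen after the values of the locus were seen, and 1944 groups of at least 2 baits had 20 or more pairs over both lists. Of these, 43 (2.21%) had at least 2-fold more in ponatinib. The 4 baits at CCNB1 and CENPH, with 16 and 70, ranked second by log2 ratio (2.06). This group includes the 2 member fragments, which were picked for their gain, so its rank carries no test. The first was a group of 3 baits on chromosome 12 (68741862 to 68812852) with ends of MDM2, the p53 ubiquitin ligase gene, NUP107, a nuclear pore gene, and SLC35E3, with 3 pairs in DMSO, 18 in ponatinib and 1 shared. Next came a group at DGAT2 and MOGAT2, enzyme genes of triglyceride synthesis, with 5 and 18, and one at MRPL19 with 5 and 18. The locus group had 70 pairs in ponatinib from 4 baits, against 18 from 3 baits in each of these groups.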
